A study of Rattus norvegicus with 16 samples.

Results

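Injection of phosphate-buffered saline on a high fat diet was compared with the same diet and no injection, by poly-A RNA sequencing of frontal cortex from male Sprague-Dawley rats. The 8 libraries of the comparison, chosen by their stated treatment from 16 in all, were HF 5 to 8 (diet alone) and HF_PBS 1 to 4 (diet with saline). All rats were 11 weeks old at the start and ate their diet for 7 weeks, and the HF_PBS rats also received saline into the abdomen (i.p.) for 10 days. No group of the series was fed this diet and handled or pierced without saline, so the fluid, the needle and the handling cannot be told apart. Another 8 libraries were used for the spread and for one companion comparison. They came from chow rats (chow 1 to 4, no injection) and from HF_5AzaD rats (HF_5AzaD 3, 5, 6 and 7), which were on the high fat diet too and received 10 days of 5-AzaD injections, an inhibitor of DNA methyltransferases, dissolved in PBS. Of 28168 loci in the table, 14824 had a mean of at least 1 FPKM over the 16 libraries and a status of OK in each, and these were tested. FPKM count fragments per kilobase of a transcript relative to the size of the library.

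A vehicle injection delivers no drug, but capture, restraint and the needle are stressors known to raise corticosterone in rodents. Glucocorticoids act on cortex through the glucocorticoid receptor and induce a known set of genes, among them Tsc22d3, Fkbp5 and Pdk4. The other gene groups described here belong to the basic economy of a cortical neuron. Ribosomes make its proteins, proteasomes break them down, and mitochondria supply its ATP. Long messages encode the scaffolds, receptors and ion channels of its synapses.

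The groups follow the treatment stated for each library. In the study's design text, HFD stands for animals on the diet without injection. In the titles, HFD1 to HFD4 are libraries whose stated treatment includes saline. If the stated treatments of these 8 libraries were exchanged, the sign of every difference given here would turn around. The labels do not state whether each library is a separate animal. So p-values measure the spread between libraries, pooled within the 4 groups of all 16, which may be technical. The groups were not equally tight. A library's median correlation with its own group was 0.975 to 0.980 in chow and 0.950 to 0.955 in HF. It was 0.936 to 0.941 in HF_PBS and 0.933 to 0.946 in HF_5AzaD. The pooled spread therefore includes a chow group tighter than the 2 groups compared. The absolute depth is unknown. Steps between low FPKM values gave depths relative to HF 7 of 93.8% to 113.5% in HF and of 101.5% to 132.6% in HF_PBS, and 23064 to 24333 loci were above 0 in a library. The libraries differed in composition. The top 50 loci of a library held 74.1% (HF 7) to 95.8% (HF 5) of the tested FPKM in HF. In HF_PBS they held 73.4% (HF_PBS 4) to 90.1% (HF_PBS 3). The first principal component of the 16 libraries held 35.3% of the variance and separated uninjected libraries (-54.5 to -15.4) from injected ones (7.95 to 60.7). Among the 8 libraries compared here its ends were HF 6 at -54.5 and HF_PBS 4 at 60.7. Defining markers of the labelled tissue were present. Slc17a7, the vesicular glutamate transporter of cortical excitatory neurons and a marker chosen after its values were seen, was between 132 and 823 FPKM in these libraries. Markers of neighbouring regions were uneven: the summed FPKM of 14 striatal markers was 268 to 1506 in HF and 291 to 1132 in HF_PBS. Many of the counts below are therefore also given without HF 6 or without HF_PBS 4.

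Between HF and HF_PBS, 3536 loci passed the test (limma, Benjamini-Hochberg adjusted p under 0.05), which is 23.9% of those tested. Of these, 1580 (10.7%) were higher in HF_PBS and 1956 (13.2%) were lower. At an unadjusted p under 0.05, 2735 of the 14824 loci tested were higher and 2884 lower. The unadjusted counts of lists below are to be read beside these, not beside 5%. The 4 HF and 4 HF_PBS libraries did not overlap at 3137 loci (21.2%), with HF_PBS above HF at 1376 (9.28%) and below it at 1761 (11.9%). The changes were modest: the median log2 difference was 0.51 among the higher loci and -0.66 among the lower ones, with 155 and 500 loci over 2-fold, while the median of all loci was 0.01. Loci that rose had a median level of 17.5 FPKM, those that fell 10.7, and all loci tested 9.38. From 1 to 2 FPKM, 5.12% of loci rose and 8.50% fell, whereas at 100 FPKM and above 17.2% rose and 9.49% fell. Loci with no gene symbol, 3791 in all, fell in 18.5% and rose in 8.44% of cases. The gene lists below use 1 locus per symbol. Of 10539 symbols so represented, those that name several genes included, 1189 rose and 1205 fell, with a median difference of 0.04. The shares of all loci printed beside the lists also cover loci without a symbol. HF_PBS lay wholly above HF in 70.9% of the loci that rose, against 9.28% of all loci. It lay wholly below HF in 76.9% of those that fell, against 11.9%. Both sets were called from these same libraries, so the shares follow in large part from that choice.

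**Figure D1:**
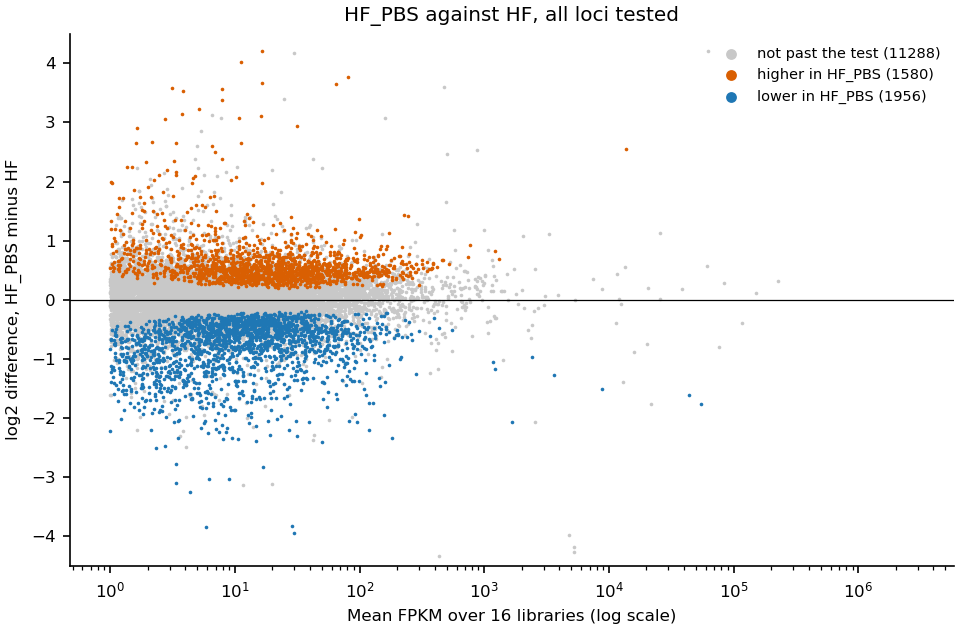
Each point is 1 of the loci tested, with its mean FPKM over 16 libraries on a log scale (x) and its log2 difference between HF_PBS and HF (y). Orange points rose (1580) and blue points fell (1956) at an adjusted p under 0.05, and 12 loci lie outside the y range; 500 blue and 155 orange points are over 2-fold.

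The number of calls rested on a few libraries. It was also smaller when the spread came from the 8 libraries of HF and HF_PBS alone, as given below. HF 6 was the highest HF library in 76.2% of the loci that fell (28.0% of all loci) and the lowest in 63.1% of those that rose (27.2% of all loci). HF_PBS 4 was the lowest HF_PBS library in 57.9% of the loci that fell (22.3% of all) and the highest in 63.4% of those that rose (25.3% of all). Without HF 6 the calls were 643 higher and 990 lower, and without HF_PBS 4 they were 641 and 1042. Without both the counts were 145 and 353, and without HF 8, HF_PBS 3 and HF_PBS 4 they were 2 and 5. Those last libraries had high striatal or myelin markers, but HF_PBS 2, with a striatal sum of 837 FPKM, was kept. That last fit left 2 HF_PBS libraries and 3 HF libraries. The 12 gene lists followed across every setting kept the sign of their median difference in each of them, these fits included.

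The genes that rose most, with 4 libraries on either side of a gap, were of several kinds. Rps24, a protein of the small ribosomal subunit, was at 131, 88.8, 173 and 148 FPKM in HF 5 to 8 and at 282, 259, 402 and 518 in HF_PBS 1 to 4. Every saline library lay above every uninjected one, and the log2 difference was 1.42 (95% interval 0.87 to 1.96, adjusted p = 0.00354). Prdx1, a peroxiredoxin that reduces hydrogen peroxide, was at 14.1, 10.2, 17.6 and 14.3 and 32, 21.9, 45.5 and 46.1 FPKM, a difference of 1.31 (adjusted p = 0.00345). HF_PBS 3 and 4 stood highest here, and HF_PBS 2 was nearest to the uninjected group. Apod, a lipocalin that carries lipids and is made largely by glia, was at 113, 103, 176 and 148 FPKM without injection and at 275, 212, 505 and 557 with it (1.44, adjusted p = 0.0119). Its order among the saline libraries resembled that of the myelin markers described later, which were also highest in HF_PBS 3 and 4, and the part of myelin in it was not tested apart from the covariate fit, where its difference was 0.70 (adjusted p = 0.0524).

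Other large rises rested on low levels. Pcsk1n, which encodes an inhibitor of a prohormone convertase, was at 0.226, 0.139, 0.457 and 0.067 FPKM in HF and at 0.914, 7.16, 18 and 9.4 in HF_PBS (3.24, adjusted p = 0.00637). A second locus of the same symbol went from a mean of 0.0794 to 6.21 FPKM (adjusted p = 0.00512). Ganab, the catalytic subunit of glucosidase II, was listed at 0 in HF 6, 7 and 8 and at 0.513 in HF 5. In HF_PBS 1 to 4 it was listed at 4.16, 4.47, 7.4 and 13.7 FPKM, so no fold is given. The calcium-binding S100a11 (1.73, adjusted p = 0.0164) and Cd74, the invariant chain of MHC class II (1.61, adjusted p = 0.0473), were also among the 10 largest. Cd74 was at 5.71, 50.4, 11.6 and 21.6 FPKM in the saline libraries against 4.4 to 5.6 in HF, and it failed the test when any 1 of 7 libraries was left out. The last of the 10 were Nqo2, a quinone reductase (2.48, 1.4, 2.01 and 1.75 against 4.15, 8.74, 4.98 and 5.3 FPKM, 1.35), Sdccag1 (1.38) and the ribosomal protein gene Rpl10a (1.34).

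The lowest adjusted p among genes that rose belonged to smaller and tighter differences. Mrpl41, a protein of the large mitochondrial ribosomal subunit, was at 30.3, 29.2, 27.7 and 32.5 FPKM in HF and at 57.9, 51, 50.4 and 61.5 in HF_PBS. The gap between the groups was wider than either group's range, with a difference of 0.87 (95% interval 0.67 to 1.07, adjusted p = 0.000729). Psmb6, a catalytic subunit of the proteasome, was at 4.26, 4.33, 4.22 and 3.52 and 11, 7.98, 9.5 and 12.7 FPKM (1.22, adjusted p = 0.00212). The nuclear receptor coactivator Pnrc1 (0.76), the endoplasmic reticulum calcium channel Tmco1 (0.71) and RGD1565641 (1.27) completed this set, each with non-overlapping groups. Mrpl41 passed the test in every alternative fit, also with 3 libraries left out.

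Among genes that fell, Gfod1, a member of an oxidoreductase family, showed one of the largest differences. It was at 27.3, 55.7, 21.2 and 20.4 FPKM in HF and at 7.39, 9.26, 3.85 and 3.26 in HF_PBS, a difference of -2.28 (95% interval -3.07 to -1.50, adjusted p = 0.00259). HF 6 stood far above its neighbours, and the other 3 HF libraries still lay above all saline ones. Scn1a, the voltage-gated sodium channel Nav1.1, was at 4.77, 20.1, 9.84 and 5.14 FPKM without injection and at 2.92, 2.56, 1.09 and 0.578 with it (-2.12, adjusted p = 0.0125). Kcnh7, a potassium channel of the ether-a-go-go family, was at 4.23, 21.5, 5.33 and 5.67 and 2.2, 2.62, 0.72 and 0.777 FPKM (-2.04, adjusted p = 0.00903). In both channel genes HF 6 was the highest library by far, and the groups did not overlap. Lphn1, the adhesion receptor latrophilin 1, was at 77.2, 153, 75 and 83.6 FPKM in HF and at 40.6, 41.2, 23.1 and 17.8 in HF_PBS (-1.67, adjusted p = 0.00291). Exoc8, a subunit of the exocyst that tethers secretory vesicles, was at 4.33, 10.8, 4.67 and 6.43 FPKM in HF, at 2.39 in HF_PBS 1 and listed at 0 in HF_PBS 2, 3 and 4.

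The other genes of the 10 largest falls were Caln1 (calneuron 1, -2.05), Mab21l1 (-1.99), Dbf4, the activating subunit of the Cdc7 kinase (-1.91), the orphan nuclear receptor Nr2c2 (-1.87) and Mgat5, a glycosyltransferase of N-glycan branching (-1.80). Each had groups that did not overlap and an adjusted p between 0.00284 and 0.00422. By lowest p the falls were led by RGD1304884 (-1.31), Icmt, which methylates the ends of prenylated proteins (-0.72), and 3 chromatin genes. Bap1, a deubiquitinase of histone H2A, was at 60.3, 68.4, 56.8 and 53.2 FPKM in HF and 38.7, 39.7, 32.3 and 31.8 in HF_PBS (-0.74, adjusted p = 0.00212). Cbx6, a Polycomb protein, was at 93.6, 129, 98.5 and 97.6 and 66.2, 65.5, 56.5 and 58.1 FPKM (-0.75), and the histone reader Spin1 was at 2.28, 4.91, 2.55 and 3.06 and 0.856, 1.28, 0.948 and 0.922 (-1.26). All uninjected libraries were above all injected ones for these 3 genes.

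**Figure D2:**
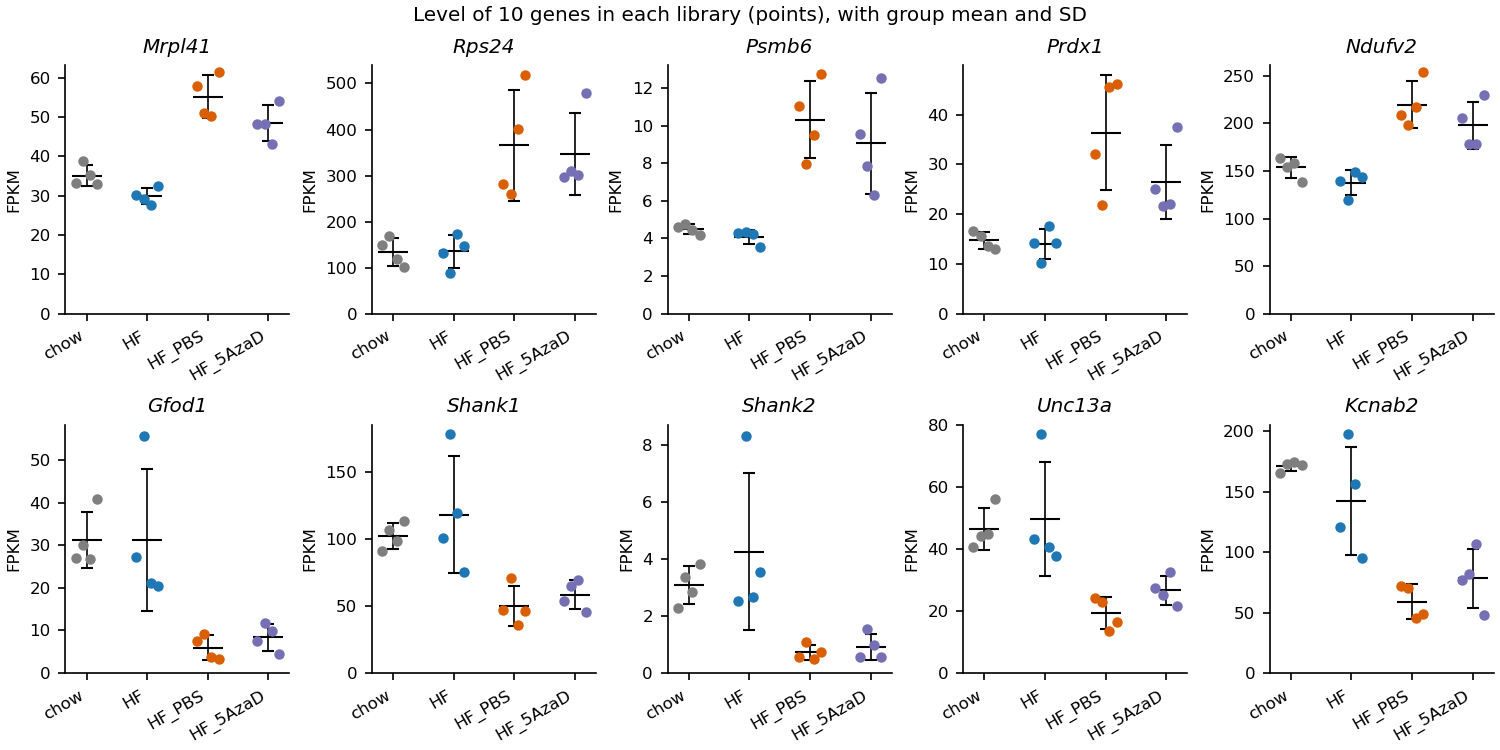
Each point is 1 library, with FPKM on the y axis of each panel from 0 and the 4 groups on the x axis; the bar is the group mean and the whiskers its SD (n = 4). In the upper row HF_PBS libraries lie above the HF libraries (Mrpl41 at 50.4 to 61.5 against 27.7 to 32.5 FPKM), and in the lower row below them.

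Genes that moved together were looked at for letters shared in their promoters. RefSeq promoter windows (assembly GRCr8, 250 bases before to 50 after the start, 300 in all) were matched by symbol to 962 of 1155 genes that rose, 942 of 1167 that fell and 6336 of 7894 that were not called. The files use another build, so only the symbols link them. The windows of 3 genes that differ in direction are shown, with matches in capitals. All 3 hold a match, whereas the windows of Rps24 and Gfod1, named above, held 0 of the motifs listed below. Mrpl41 had the lowest p (chr3:28179706-28180005, minus strand), Psmb6 holds letters that recurred among proteasome genes (chr10:55737638-55737937, plus strand), and Chd5, a neuronal chromatin remodeller described below, fell (chr5:168130862-168131161, plus strand).
Mrpl41: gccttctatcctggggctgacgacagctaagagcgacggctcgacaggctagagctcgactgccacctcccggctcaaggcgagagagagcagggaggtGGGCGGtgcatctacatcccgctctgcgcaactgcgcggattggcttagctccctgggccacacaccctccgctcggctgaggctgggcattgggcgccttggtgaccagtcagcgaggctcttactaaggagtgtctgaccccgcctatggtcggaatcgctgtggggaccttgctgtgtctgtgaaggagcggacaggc
Psmb6: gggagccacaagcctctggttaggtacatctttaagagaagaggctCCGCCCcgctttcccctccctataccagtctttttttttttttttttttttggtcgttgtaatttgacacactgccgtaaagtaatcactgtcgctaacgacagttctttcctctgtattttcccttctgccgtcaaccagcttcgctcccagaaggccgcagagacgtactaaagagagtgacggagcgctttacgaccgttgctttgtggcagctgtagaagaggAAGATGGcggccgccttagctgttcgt
Chd5: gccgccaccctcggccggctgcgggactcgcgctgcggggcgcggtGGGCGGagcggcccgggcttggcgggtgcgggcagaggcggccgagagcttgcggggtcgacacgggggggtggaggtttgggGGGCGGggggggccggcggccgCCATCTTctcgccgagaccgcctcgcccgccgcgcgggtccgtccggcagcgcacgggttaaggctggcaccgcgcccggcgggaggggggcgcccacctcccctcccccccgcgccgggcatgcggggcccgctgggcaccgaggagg
The capitals in Mrpl41 and the first run in Psmb6 are matches to GGGCGG, the SP/KLF motif, on either strand. The second run in Psmb6 is AAGATGG (YY1), near the end of the window. Chd5 has GGGCGG at 2 places and the YY1 letters once, on the minus strand.

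Motifs were searched on both strands as fixed letters, and none of them contains another. They were ETS (CCGGAAG), YY1 (AAGATGG), NRF1 (its palindromic consensus), SP/KLF (GGGCGG), the TATA box (TATAAA), CRE (TGACGTCA), the E-box (CACGTG) and the GRE (the palindromic glucocorticoid receptor element). CCGGAAG stood in 26.0% of the promoters of genes that rose, in 17.3% of those that fell and in 16.2% of those not called, against 9.22% of the 27457 windows in the table. AAGATGG stood in 11.4%, 9.66% and 7.91%, and TATAAA in 6.86%, 3.93% and 6.55%. GGGCGG was common everywhere (63.8%, 67.1% and 63.1%), and the GRE letters were rare (0.312%, 0.212% and 0.221%). Genes that rose had promoters of lower GC content (median 59.7%) than those not called (61.3%), and genes that fell had the highest (64.3%). Among mitochondrial ribosomal genes, 51 of 62 had a window, and CCGGAAG was in 29.4% and AAGATGG in 27.5% of them. Among proteasome genes, 34 of 38 had one, with 29.4% and 32.4%. Among complex I genes, 30 of 33 had one, with 20% and 23.3%, and all tested symbols had 17.5% and 8.52%. Among glucocorticoid response genes, 18 of 21 had one, and the CCGGAAG and GRE letters were in 0% of these windows. These shares describe letters in a window and are neither binding sites nor causes. The same check was void for the cytosolic ribosomal, scaffold and potassium channel genes, where under 80% had a window (77.4%, 72.0% and 65.3%).

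The protein synthesis machinery held many genes that rose. Of 62 cytosolic ribosomal protein genes tested, 32 rose and 0 fell, against 10.7% of all loci that rose. The list's median log2 difference was 0.55, with 54 members above 0, beside 0.01 for all loci and 0.04 for 1 locus per symbol. At an unadjusted p under 0.05, 44 were higher and 0 lower, beside 2735 and 2884 of the 14824 loci tested. Rpl10a of the large subunit was at 5.14, 5.56, 8.82 and 7.34 FPKM in HF and at 13, 16.8, 17.6 and 24 in HF_PBS (1.34, adjusted p = 0.00212). Rps15a of the small subunit was at 7.68, 6.62, 5.88 and 7.42 and 15.5, 14, 18.9 and 21.5 FPKM (1.27, adjusted p = 0.00212), and Rpl6 at 5.45, 3.38, 4.82 and 5.83 and 9.94, 10, 10.9 and 11.2 (1.06, adjusted p = 0.00212). In all 3, as in Rps24, the saline libraries were above the others. The score of the list, the mean over members of the log2 deviation from the 16-library mean, was -0.22, -0.45, -0.10 and -0.21 in HF 5 to 8 and 0.07, -0.03, 0.49 and 0.60 in HF_PBS 1 to 4. So the groups did not overlap, and HF_PBS 3 and 4 were highest. The score of myelin markers, described later, was 0.37, -0.44, 1.22 and 1.18 in the same 4 saline libraries, and with that score as a covariate 8 ribosomal genes rose. The number that rose was 17 without HF 6, 21 without HF_PBS 3, 16 without HF_PBS 4 and 0 without HF 8, HF_PBS 3 and HF_PBS 4. Ribosomal protein genes have many processed copies in the genome, and the levels of single members are uncertain where reads were shared among copies.

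Translation factors moved the same way in part: of 37 tested, 15 rose and 2 fell (median 0.27), beside 10.7% and 13.2% of all loci. Tpt1, the translationally controlled tumour protein, was at 119, 94.4, 111 and 110.0 FPKM in HF and 199.7, 152, 197 and 283 in HF_PBS (0.90, adjusted p = 0.00271). Eif2s1, the alpha subunit of the initiation factor eIF2, rose by 0.54, Eif1, which takes part in start codon selection, by 0.45, and Naca, a chaperone of nascent chains, by 0.57. Eef2, the elongation factor that moves the ribosome along the message, went the other way, at 451, 470.5, 493 and 387 FPKM in HF and 356, 342, 381 and 366 in HF_PBS (-0.31, adjusted p = 0.0214), and Eif4h fell by 0.23. The number that rose was 6 without HF 6, 9 without HF 8 and 6 without HF_PBS 4.

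Mitochondrial genes encoded in the nucleus rose across several complexes. Of 62 mitochondrial ribosomal protein genes 28 rose and 0 fell (median 0.34, 57 members above 0), beside 10.7% and 13.2% of all loci. Mrps21 was at 45.8, 37.3, 41 and 39 FPKM in HF and 67.3, 58.2, 70.1 and 94 in HF_PBS (0.80, adjusted p = 0.00426). Mrpl34 (0.58) and Mrpl32 (0.53) had non-overlapping groups as well. Of 33 subunits of complex I, the NADH dehydrogenase, 17 rose and 0 fell (median 0.45, 32 above 0). Its subunit Ndufv2 was at 139.7, 119.6, 149 and 144 FPKM without injection and at 209, 198, 218 and 254 with it (0.67, adjusted p = 0.0027). Ndufs4 (0.45) and Ndufa11 (0.65) rose similarly. The complex I score was -0.17, -0.37, -0.12 and -0.27 in HF 5 to 8 and 0.30, -0.05, 0.10 and 0.41 in HF_PBS 1 to 4, with no overlap.

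Of 15 ATP synthase subunits 9 rose and 0 fell (median 0.48), beside 10.7% and 13.2% of all loci. Atp5j, a peripheral stalk subunit, was at 267, 207, 266 and 209 FPKM in HF and 422, 299, 356 and 449 in HF_PBS (0.68, adjusted p = 0.0112). Atp5i was the most abundant of those named and had 643, 437, 624 and 511 FPKM against 926, 702, 879 and 1158 (0.72). HF 6 was the lowest library of each. In complexes II and III 4 of 13 rose, among them Uqcrb of complex III (0.88) and cytochrome c, Cycs (0.78), and in complex IV 3 of 10 rose, with Cox7b at 0.59. Sdha, the catalytic flavoprotein of complex II, fell by 0.31 on the log2 scale. It was at 129, 139.6, 126 and 128 FPKM in HF and at 115, 113, 102 and 93 in HF_PBS. Of 17 mitochondrial import and chaperone genes 9 rose, led by the small translocases Timm8a1 (0.83) and Timm10b (0.79), and Hspa9, the mitochondrial Hsp70, fell by 0.49. The counts that rose were 13, 7, 2 and 2 without HF 6 for the mitochondrial ribosome, complex I, ATP synthase and import lists, and 13, 7, 3 and 2 without HF_PBS 4. In complexes II and III 1 gene rose without HF 6 and 1 without HF_PBS 4, and the same counts held for complex IV. For complex I the count was also 10 without HF 8 and 11 without HF_PBS 1.

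The proteasome list had 12 of 38 members that rose and 1, Psmd2, that fell (median 0.29, 35 above 0). Of all loci, 10.7% rose and 13.2% fell. Psmd1, a large subunit of the regulatory particle, was at 54.9, 45, 46.2 and 49.4 FPKM in HF and 81.9, 66.3, 76.8 and 86.6 in HF_PBS (0.66, adjusted p = 0.00212). The core subunits Psma4 (0.60) and Psma2 (0.56) rose by similar amounts, and in all of these the groups were apart. Without HF 6 or without HF_PBS 4 the number that rose was 8. RNA handling genes gave comparable counts. Of 15 small nuclear ribonucleoprotein and LSm genes, the core of the spliceosome, 7 rose and 0 fell (median 0.44), with Snrpb2 at 0.73 and Lsm3 at 0.64. Of 29 RNA polymerase II and Mediator subunits 10 rose and 1 fell (median 0.28). Med21 was at 18.2, 18.3, 19.9 and 18.3 FPKM in HF and 29.4, 25, 24.9 and 30 in HF_PBS (0.53, adjusted p = 0.00378), and the one that fell, Med15, changed by -0.33. Without HF 6, and likewise without HF_PBS 4, 2 snRNP and LSm genes and 6 polymerase and Mediator genes rose.

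**Figure D3:**
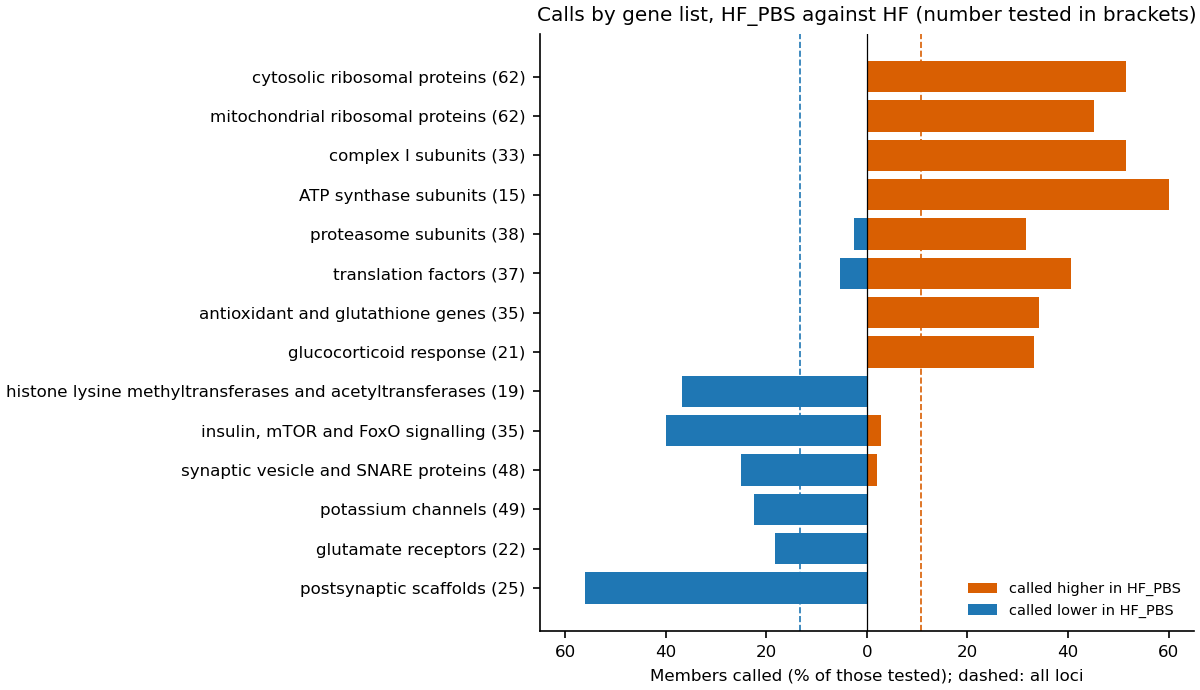
Bars give the share of tested members (in percent, from 0 in either direction) called higher (orange, right) and lower (blue, left) in HF_PBS for 14 gene lists, with the number tested in brackets. Dashed lines mark 10.7% and 13.2%, the shares of all loci, and the ATP synthase and scaffold lists reach farthest.

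Genes of the synapse were among those that fell. Of 25 postsynaptic scaffold genes 14 fell and 0 rose, against 13.2% of all loci that fell, and the median difference was -0.63 (16 lower and 0 higher at an unadjusted p under 0.05). Shank1, a master scaffold of the excitatory postsynapse, was at 100.4, 178, 119 and 74.9 FPKM in HF and at 47.1, 70.8, 35.9 and 46.1 in HF_PBS (-1.20, adjusted p = 0.00468). HF 6 was highest and HF_PBS 2 came closest to the uninjected libraries, with a narrow gap between 70.8 and 74.9. Shank2, of the same family as Shank1, was at 2.52, 8.32, 2.66 and 3.54 FPKM in HF and 0.556, 1.08, 0.495 and 0.74 in HF_PBS (-1.84, adjusted p = 0.00291). The GTPase-activating protein Agap2 fell by 0.69. The list's score was 0.20, 0.66, 0.15 and 0.17 in HF 5 to 8 and -0.28, -0.02, -0.68 and -0.35 in HF_PBS 1 to 4. The groups were apart, and HF 6 was far above the other HF libraries. Without HF 6 the number that fell was 8, without HF_PBS 3 it was 9, and without HF 8, HF_PBS 3 and HF_PBS 4 it was 0.

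Receptors and channels gave smaller counts. Of 22 glutamate receptor genes 4 fell and 0 rose (median -0.31), a share close to the 13.2% of all loci that fell. Grin2b, the NMDA receptor subunit GluN2B, was at 22.9, 35, 16.5 and 20.8 FPKM without injection and 14.5, 17.8, 6.72 and 9.73 with it (-0.97, adjusted p = 0.0173). In Grin2b the groups overlapped, since HF_PBS 2 lay above HF 7. Grid1 (-0.99) and the kainate receptor subunit Grik3 (-0.90) also fell. Of 12 GABA-A receptor subunits 3 fell (median -0.44), among them Gabra4, at 25.7, 42.1, 22.7 and 38.9 FPKM in HF and 19.2, 30.5, 12 and 9.63 in HF_PBS (-0.93, adjusted p = 0.0376). Without HF 6, and likewise without HF_PBS 4, 1 glutamate receptor and 0 GABA-A subunits fell.

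Of 49 potassium channel genes 11 fell and 0 rose (median -0.55, 42 members below 0, and 20 lower and 0 higher at an unadjusted p under 0.05). Kcnab2, an auxiliary subunit of voltage-gated channels, was at 121, 198, 157 and 95.2 FPKM in HF and 72.2, 70.4, 45.2 and 48.7 in HF_PBS (-1.24, adjusted p = 0.00468). The leak channel Kcnk9 was at 10.7, 24.4, 8.45 and 11 and 5.99, 5.37, 5.87 and 4.15 FPKM (-1.17, adjusted p = 0.00524), with HF 6 far above every other library. Kcnj4, an inward rectifier, fell by 0.89. The score of the list was 0.14, 0.53, 0.15 and 0.09 in HF 5 to 8 and -0.03, -0.07, -0.69 and -0.55 in HF_PBS 1 to 4, so no library of one group reached the other. The number that fell was 4 without HF 6, 5 without HF_PBS 4, 7 with no filter on low values and 18 without HF_PBS 1. Of 23 sodium and calcium channel genes 5 fell and 1 rose (median -0.41), beside 13.2% and 10.7% of all loci. The number that fell was 2 without HF 6, 3 without HF_PBS 4 and 9 without HF_PBS 2. The calcium channel Cacna1i was at 24.9, 37.6, 31 and 21.2 FPKM in HF and 15, 16.2, 11.1 and 12.7 in HF_PBS (-1.02). The auxiliary subunit Cacna2d2 rose by 1.04 at its larger locus, while a second one was lower with saline (-0.54, adjusted p = 0.269). Of 15 calmodulin and calmodulin kinase genes 3 fell (median -0.42), beside the same 13.2% of all loci. Camk2a, the kinase of synaptic plasticity, was at 1311, 2192, 1789.6 and 1039 FPKM without injection and 806, 989.7, 392 and 669.6 with it (-1.17, adjusted p = 0.00813), and a second, minor locus of the symbol fell too (-1.12, adjusted p = 0.0163). Without HF 6 or without HF_PBS 4, 1 kinase gene fell.

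On the presynaptic side 12 of 48 synaptic vesicle and SNARE genes fell and 1 rose (median -0.35). Unc13a, which primes vesicles for release, was at 43.2, 76.9, 40.7 and 37.6 FPKM in HF and at 24.3, 22.9, 13.6 and 16.3 in HF_PBS (-1.32, adjusted p = 0.00291). Its groups did not overlap, and HF 6 was highest. Syt7, a calcium sensor, fell by 0.85 and Syt13 by 0.81. Vamp3, a vesicle SNARE found outside neurons as well, rose by 0.73. Over the whole list the scores of the groups overlapped: HF ran from 0.00 to 0.31 and HF_PBS from -0.53 to 0.06. The number that fell was 4 without HF 6, 6 without HF_PBS 3 and 4 without HF_PBS 4. Of 19 spectrins, ankyrins and giant scaffolds 7 fell, 1 rose and 11 were not called. Map1a, a microtubule-associated protein of dendrites, was at 96.2, 226, 126 and 122 FPKM in HF and 54.9, 69.8, 54.4 and 34.9 in HF_PBS (-1.37, adjusted p = 0.00476). Of 23 semaphorin, plexin and neuropilin genes 6 fell, led by Sema6b (-0.46), and 17 were not called. Without HF 6 or without HF_PBS 4, 2 of them fell. Motor genes were split, with 5 of 33 that rose (Dynlrb1, a dynein light chain, by 0.53) and 7 that fell (Kif3b, a kinesin, by 0.66). Of all loci, 10.7% rose and 13.2% fell.

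Signalling by insulin, mTOR and FoxO was examined because both groups ate a high fat diet, which is known to disturb insulin action. The list was chosen with earlier results of these data known, so its counts are no independent check. Of 35 genes 14 fell and 1 rose (median -0.28, 27 below 0), beside 13.2% and 10.7% of all loci. Igf1r, the receptor of insulin-like growth factor 1, was at 4.84, 7.33, 4.82 and 4.76 FPKM in HF and 3.03, 3.51, 2.99 and 2.62 in HF_PBS (-0.73, adjusted p = 0.0103). Pdpk1, the kinase that activates Akt, was at 31.5, 41.3, 27.6 and 29.2 and 22.9, 24.5, 16 and 17 FPKM (-0.68, adjusted p = 0.00784). Mlst8, a subunit of both mTOR complexes, was at 14.6, 16.3, 16.8 and 16.3 FPKM without injection and 10.1, 10.8, 9.97 and 5.21 with it (-0.84, adjusted p = 0.00609). Tsc1, an inhibitor of mTOR complex 1, fell as well, by 0.58. So activators and inhibitors of the pathway were both among the genes that fell. The one that rose was Eif4ebp1, a repressor of translation downstream of mTOR (0.52, adjusted p = 0.0314). In 13 of the 35 the HF libraries lay wholly above the HF_PBS ones, against 11.9% of all loci. The number that fell was 7 without HF 6, 8 without HF_PBS 4, and 1 without HF 8, HF_PBS 3 and HF_PBS 4.

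Chromatin genes fell in part, with medians near 0. Of 19 histone lysine methyltransferases and acetyltransferases 7 fell and 0 rose (median -0.11), beside 13.2% and 10.7% of all loci. Ehmt1, which methylates lysine 9 of histone H3, was at 4.44, 5.15, 4.17 and 5.56 FPKM in HF and 2.46, 3.13, 2.78 and 2.22 in HF_PBS (-0.76, adjusted p = 0.00363). Nsd1 (-0.81), Ash1l (-0.64) and Setd5 (-0.50) fell too. Of 19 chromatin remodellers 7 fell and 2 rose (median -0.06). Chd5, a remodeller of mature neurons whose promoter is printed above, was at 40.4, 61.9, 30.1 and 33.3 FPKM without injection and at 16.8, 16.6, 13 and 9.72 with it (-1.50, adjusted p = 0.00258). No saline library came near the lowest uninjected one. Smarce1 (0.26) and Smarca2 (0.31) rose. Without HF 6, 5 histone modifiers and 6 remodellers fell, and the same counts held without HF_PBS 4.

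Of 11 DNA methylation genes 5 fell and 2 rose (median -0.02), beside 13.2% and 10.7% of all loci. Dnmt1, the maintenance methyltransferase, was at 7.7, 7.19, 6.74 and 8.38 FPKM in HF and 6.49, 6.42, 5.85 and 6.2 in HF_PBS, a small fall of 0.24 (adjusted p = 0.0331) with groups that did not overlap. Mbd1 fell by 0.41 and Dnmt3a by 0.26, while Mbd2, a reader of methylated DNA, rose by 0.32. Without HF 6 or without HF_PBS 4, 1 gene of the list fell and 0 rose. Dnmt1 failed the test without any 1 of HF 5, HF 6, HF 8, HF_PBS 3 or HF_PBS 4, at a difference of -0.26 to -0.19.

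Stress responses were examined because injection is a stressor. These lists too were chosen with earlier results of these data known, so their counts are no independent check. Of 21 glucocorticoid response genes 7 rose and 0 fell (median 0.66), beside 10.7% and 13.2% of all loci. At an unadjusted p under 0.05, 12 were higher and 2 lower, beside 2735 and 2884 of the 14824 loci tested. Mt1a, a metallothionein, was at 4.03, 4.18, 4.39 and 4.01 FPKM in HF and 8.42, 8.46, 9.66 and 11.8 in HF_PBS (1.11, adjusted p = 0.00453), with a clear gap. Pdk4, which restrains pyruvate oxidation, was at 1.12, 0.964, 1.75 and 2.38 and 9.7, 1.99, 6.02 and 3.47 FPKM (1.36, adjusted p = 0.0219), and HF_PBS 2 lay below HF 8. Tsc22d3 (GILZ), a classic target, was at 33.6, 33.1, 40 and 32.3 FPKM without injection and 59.6, 36.7, 56 and 42.4 with it (0.46, adjusted p = 0.0327). HF_PBS 2 was below HF 7, so these groups overlapped, and the chow libraries averaged 52.9 ± 2.29 FPKM. Cebpd, a transcription factor, rose by 0.89. Fkbp5, a co-chaperone of the receptor and a standard target, did not pass and was lower on average, at 12.7, 19.8, 14.8 and 15.8 and 14.1, 13.4, 10.9 and 8.4 FPKM (-0.42, 95% interval -0.78 to -0.06, adjusted p = 0.0836). The receptor itself, Nr3c1, was at 15.1, 17.1, 13.9 and 14.3 and 13.5, 13.8, 13.1 and 12.4 FPKM (-0.19, adjusted p = 0.269). The number that rose was 1 without HF 6, 2 without HF 5 or without HF_PBS 1, 3 without HF_PBS 4, and 4 without HF_PBS 3 or with no filter on low values. Of the 21 genes, 15 were higher on average with saline and 6 were lower. The list's mean score was 0.02 in chow, -0.30 in HF and 0.17 in HF_PBS, so HF lay below both. In HF_5AzaD against chow the list's median difference was -0.08, while its mean score was higher in HF_5AzaD (0.11), so median and mean differed in sign there.

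Of 35 antioxidant and glutathione genes 12 rose and 0 fell (median 0.35, with 18 higher and 1 lower at an unadjusted p under 0.05). Besides Prdx1, the peroxiredoxin Prdx4 rose by 0.63 and Prdx2 by 0.42. Gstm1, a glutathione transferase, was at 61.4, 37.4, 78.5 and 51.2 FPKM in HF and 80.2, 123, 146 and 158 in HF_PBS (1.15, adjusted p = 0.0153), and its second locus also rose (0.68, adjusted p = 0.0230). The number that rose was 2 without HF 6, 6 without HF_PBS 3 and 2 without HF_PBS 4. Of 18 metallothionein, thymosin and ferritin genes 5 rose and 0 fell (median 0.58), beside 10.7% and 13.2% of all loci. Tmsb4x, an actin-binding peptide, was at 1030.2, 704, 979 and 876 FPKM in HF and 1452, 1212, 1577 and 2227 in HF_PBS (0.83, adjusted p = 0.006). Ptma, a small acidic nuclear protein, rose by 1.10 and Tmsb10 by 1.13. Without HF 6, and likewise without HF_PBS 4, 3 of this list rose.

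Other acute responses were small. Of 16 heat shock and cold response genes 2 rose and 1 fell. Cryab, a small heat shock protein abundant in oligodendrocytes and astrocytes, was at 47.2, 52.7, 67.6 and 46.8 FPKM in HF and 119.7, 67.6, 261 and 167 in HF_PBS (1.36, adjusted p = 0.0135), and HF_PBS 2 equalled the highest HF library. The cold-inducible Rbm3 rose by 0.60. Hspa8, the constitutive Hsp70, was listed at 3.32, 3.2, 2.47 and 3.05 FPKM in HF and 0.994, 0.67, 1.08 and 0.563 in HF_PBS (-1.42, adjusted p = 0.00226). Those levels are low for so abundant a chaperone, and processed copies of the gene may share its reads, so the value is uncertain. Of 20 endoplasmic reticulum stress genes 4 rose, with Dnajb9 at 0.57 and Pdia3 at 0.38, and 2 fell, with Atf6 at -0.49, beside 10.7% and 13.2% of all loci. Without HF 6 or without HF_PBS 4, 2 rose and 0 fell.

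Of 21 immediate early genes, induced within minutes by neuronal firing, 1 rose (Jund, 0.37) and 1 fell (Fosl2, -1.20), beside 10.7% and 13.2% of all loci. Fos was at 6.64, 4.05, 6.98 and 30.2 FPKM in HF and 13.1, 26.7, 17.7 and 24.4 in HF_PBS (1.12, 95% interval -0.10 to 2.35, adjusted p = 0.166). HF 8 was above all saline libraries, while HF 5, 6 and 7 were below them, and without HF 8 the difference was 1.70 (adjusted p = 0.0305). Arc, a synaptic activity gene, was at 21.5, 17.7, 40.7 and 91.8 and 47.7, 90.5, 50.7 and 86.1 FPKM, with HF 8 again highest (0.92, adjusted p = 0.238). Bdnf, a neurotrophin, was at 9.9, 4.76, 4.93 and 4.44 and 8.57, 8.63, 3.26 and 6.6 FPKM (0.15, adjusted p = 0.733). Inflammation and acute phase genes numbered 13, of which Nfkbia, an inhibitor of NF-kappaB, rose (0.81) and Stat3 fell (-0.40). Of 22 interferon response genes 2 rose (Gbp2, 0.89, and Ddx58, 0.52) and 1 fell (Stat2, -0.39). In both lists these counts were below the shares of all loci. Without HF 6 or without HF_PBS 4, 0 genes of either list and 0 immediate early genes rose.

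Metabolic genes gave mixed results. Gapdh, a glycolytic enzyme often used as a reference, was at 61.1, 43, 56.5 and 43.8 FPKM in HF and at 99.9, 94.3, 88.9 and 129 in HF_PBS, a rise of 1.01 (95% interval 0.68 to 1.33, adjusted p = 0.00212) with no overlap. Actb, the other common reference, was at 841, 798, 741 and 896 and 1016, 1024, 875 and 1163 FPKM (0.31, adjusted p = 0.0594) and did not pass. Both kept their sign under the 3 other scalings. Gapdh stood far below Actb, and whether copies of the gene shared its reads was not tested, so its level is uncertain. Of 14 glycolytic enzymes Gapdh and Eno1 (0.69) rose and the others were not called. Of 22 cholesterol genes 5 fell and 2 rose (median 0.00), beside 13.2% and 10.7% of all loci. Srebf2, the transcription factor that drives the pathway, was at 55, 69.9, 54.5 and 49.7 FPKM in HF and 39.4, 38.2, 33.3 and 35.8 in HF_PBS (-0.63, adjusted p = 0.00354). The enzyme Lss (-0.67) fell, and Nsdhl (0.47) and Idi1 (0.51) rose. Without HF 6, 2 of the list fell, and without HF_PBS 4, 3 did.

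Cell type and region markers moved in some libraries more than between the groups. In bulk tissue, fewer cells of a type and less RNA per cell cannot be told apart. Of 7 excitatory neuron markers 1 fell, a share close to the 13.2% of all loci that fell, and all 7 were lower on average. The marker that fell was Nell2, at 266, 286, 216 and 237 FPKM in HF and 210.4, 216, 98.3 and 149 in HF_PBS (-0.64, adjusted p = 0.0279). The excitatory list summed to 814 to 1391 FPKM in HF and 307 to 1136 in HF_PBS, and its score was 0.47, 0.06, -1.50 and -0.35 in HF_PBS 1 to 4. HF_PBS 1 thus sat within the HF range of -0.35 to 0.54, and HF_PBS 3 was lowest of the 8. Of 14 striatal markers 0 passed in either direction by limma, and 0 had an unadjusted p under 0.05. The striatal score was -0.49, -0.47, -0.55 and 2.37 in HF 5 to 8 and -0.62, 1.34, 1.17 and 1.54 in HF_PBS 1 to 4. High values were found in 1 HF library and 3 HF_PBS libraries.

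Of 20 oligodendrocyte and myelin markers 3 rose, beside 10.7% of all loci, and 20 were above 0 (median 0.78). Aspa, which cleaves N-acetylaspartate in oligodendrocytes, was at 10.3, 9.49, 9.47 and 7.98 FPKM in HF and 20.5, 12.7, 21.9 and 20.7 in HF_PBS (0.96, adjusted p = 0.00289). The tight junction gene Cldn11 (0.92) and the receptor Gpr37 (0.91) also rose. The markers summed to 3543 to 5564 FPKM in HF and 3669 to 14422 in HF_PBS, with scores of 0.37, -0.44, 1.22 and 1.18 in HF_PBS 1 to 4 against -0.31 to 0.11 in HF. By score HF_PBS 2 was below every HF library and HF_PBS 3 and 4 were far above. At an unadjusted p under 0.05, 14 were higher and 0 lower, beside 2735 and 2884 of the 14824 loci tested. The number that rose was 1 without HF 6, 1 without HF_PBS 4 and 17 without HF_PBS 2. Of 8 markers of oligodendrocyte precursors 5 were above 0 (median 0.16). The receptor Gpr17, 1 of the 8, fell by 1.17, beside 13.2% of all loci that fell. Without HF 6 or without HF_PBS 4, 0 of the list fell.

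Of 8 hypothalamic markers 2 rose, beside 10.7% of all loci, and these were the peptide genes Pmch (1.45) and Gal (1.97). Gal was at 2.12, 0.813, 1.62 and 2.74 FPKM in HF and 2.96, 1.85, 36.9 and 18 in HF_PBS (adjusted p = 0.0489). Oxt, the oxytocin precursor and the gene of this list with the largest difference, was named after its values were seen. It was at 0.127, 0.296, 0.139 and 1.99 FPKM in HF and 0.234, 5.61, 403 and 46.6 in HF_PBS (adjusted p = 0.0514). The list summed to 89.8 to 459 FPKM in HF and 127 to 1618 in HF_PBS, with scores of -0.62, 0.58, 3.43 and 2.09 in HF_PBS 1 to 4. Gal failed the test without HF_PBS 3 (1.27) or HF_PBS 4 (1.61), and 0 of the list rose without HF 6 or without HF_PBS 4.

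Of the remaining markers, Aqp4, the astrocyte water channel, rose (0.72, adjusted p = 0.0376), 1 of 16 astrocyte markers, and summed astrocyte levels were 1569 to 2414 FPKM in HF and 1653 to 2958 in HF_PBS. Tcf7l2, a thalamic factor also made by oligodendrocytes, rose by 0.90, 1 of 10 thalamic markers. These single markers and those below stand beside 10.7% of all loci that rose and 13.2% that fell. By limma 0 of 17 microglial (340 to 459 against 338 to 733 FPKM summed), 11 endothelial, 15 mural and meningeal, 13 interneuron and 12 deep layer markers passed. At an unadjusted p under 0.05 there were 4, 1, 1, 1 and 0 that were higher and 1, 2, 0, 1 and 1 that were lower. Among the 14824 loci tested, 2735 were higher and 2884 lower at that cut. Plcxd2, 1 of 8 upper layer markers, fell by 1.16. Of 6 choroid plexus and ependymal markers Kcnj13 fell by 0.70, while the other 5 were above 0 (median of the list 0.76). Their score was -0.85 to 0.01 in HF and 0.06 to 0.50 in HF_PBS, and their sum 19.1 to 33.8 and 25.9 to 41.5 FPKM. Mural and meningeal markers summed to 301 to 688 FPKM in HF and 579 to 3237 in HF_PBS, where HF_PBS 2 had the highest score (1.32). Otx2 of choroid plexus, Col1a2 of meninges and Hbe2 of red blood cells were listed at 0 in all 8 libraries, whereas Ttr of choroid plexus reached 26.2 FPKM and the meningeal Dcn and Igf2 reached 23.2 and 125. The part of these cells in the results was not tested. The blood list had 1 member tested and the olfactory list 4, too few for a summary.

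These marker levels were set beside the gene groups. HF_PBS 1 had striatal, hypothalamic and excitatory scores of -0.62, -0.62 and 0.47 and a myelin score of 0.37, against at most 0.11 for myelin in HF. It lay outside the HF range for ribosomal proteins (0.07 against at most -0.10), complex I (0.30 against at most -0.12), scaffolds (-0.28 against at least 0.15) and potassium channels (-0.03 against at least 0.09). It lay within the HF range for synaptic vesicle genes (0.06), glutamate receptors (0.02), GABA-A subunits (0.04) and calmodulin kinases (-0.10). With the striatal score as a covariate, 1269 loci rose and 1612 fell. With the myelin score as a covariate 364 rose and 642 fell, among them 8 ribosomal, 5 mitochondrial ribosomal, 4 complex I and 0 ATP synthase genes that rose, and 3 scaffold, 3 potassium channel and 2 insulin pathway genes that fell. The shift with myelin is a fact of these fits, and its part in each result was not tested further.

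**Figure D4:**
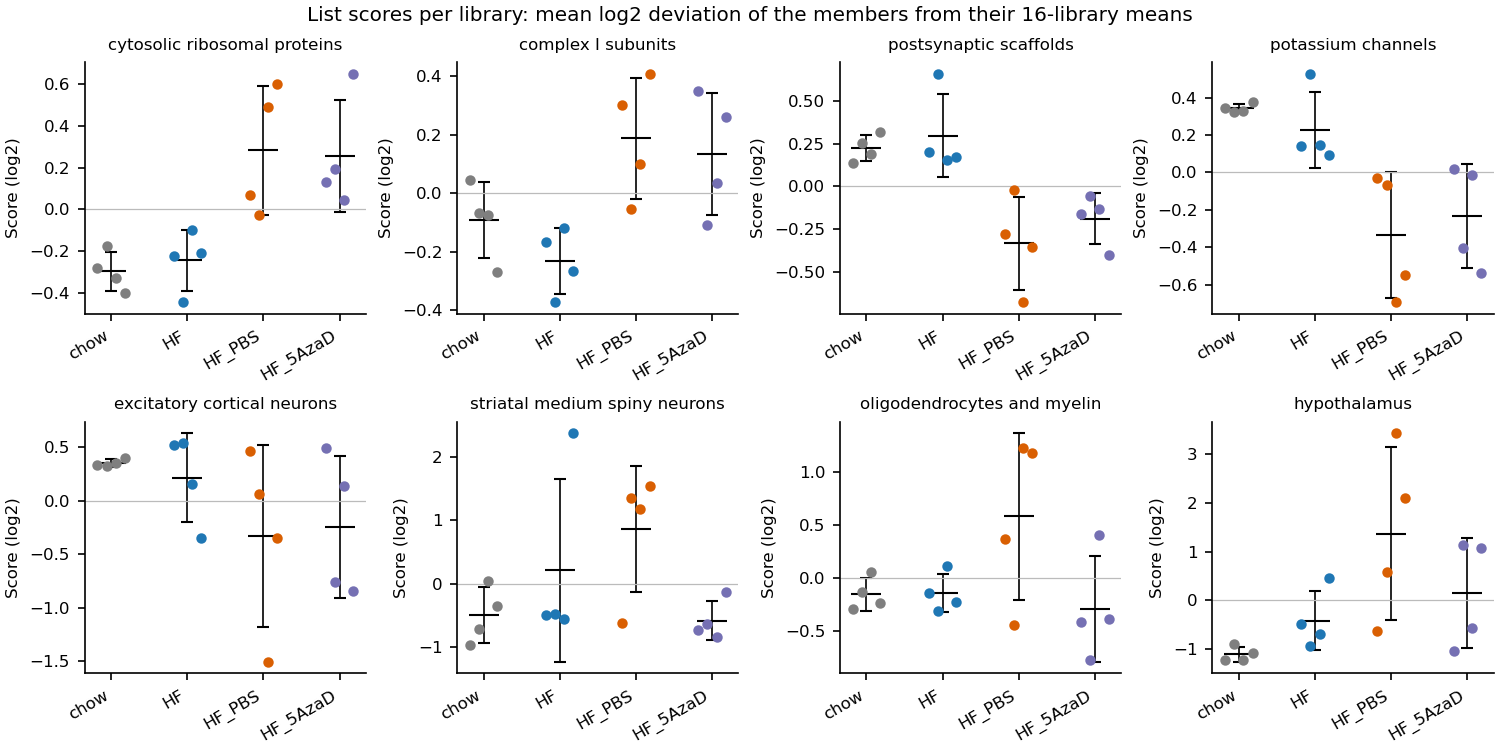
Each point is 1 library, and the y axis gives the list score (mean log2 deviation of the members from their 16-library means) for 8 gene and marker lists in the 4 groups; bars and whiskers are the mean and SD (n = 4). The ribosomal, complex I, scaffold and potassium channel scores separate HF from HF_PBS. Striatal scores are high in HF 8 (2.37) and in HF_PBS 2, 3 and 4 (1.34, 1.17 and 1.54). Myelin (1.22 and 1.18) and hypothalamic (3.43 and 2.09) scores are highest in HF_PBS 3 and 4.

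Another pair of injected and uninjected groups was compared in the same fit. HF_5AzaD against chow differs in diet, drug and injection together, and it shares no library with HF_PBS against HF. There 1064 loci were higher in HF_5AzaD (7.18%) and 1350 lower (9.11%). Of the 1580 loci that rose in HF_PBS, 96.3% were also higher in HF_5AzaD than in chow, against 50.4% of all loci, with a median difference of 0.35. Of the 1956 that fell, 97.1% were also lower, against 49.6% of all loci, with a median of -0.47. Calls in both numbered 576 higher and 930 lower, and 1 locus was called in opposite directions. That is 36.5% of the loci that rose in HF_PBS and 54.1% of those higher in HF_5AzaD, and 47.5% and 68.9% of the lower ones. Across the loci the differences correlated with Pearson's r = 0.714 and Spearman's rho = 0.722. Loci are not independent, and all libraries share one fit of the spread. A batch of animals or libraries that followed injection could not be told apart from injection in either comparison.

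For single genes the values stood side by side. Rps24 averaged 134 ± 30.2 FPKM in chow and 347 ± 88.5 in HF_5AzaD (1.36, adjusted p = 0.00918), beside 135 ± 35.3 in HF and 365 ± 119.6 in HF_PBS. Psmb6 averaged 4.51 ± 0.259 and 9.05 ± 2.66 FPKM (0.89, adjusted p = 0.0101), and Gfod1 31.2 ± 6.61 and 8.35 ± 3.15 (-1.90, adjusted p = 0.0101). These 3 genes went the same way in both comparisons. Gapdh, whose level is uncertain as said above, did so as well, with 52.1 ± 3.95 and 96.4 ± 16.9 FPKM (0.87, adjusted p = 0.00803). Apod was a gene without such a match, at 178 ± 40.7 and 202 ± 95.1 FPKM (0.09, adjusted p = 0.878), and so was Nqo2 (-0.13, adjusted p = 0.717). Tsc22d3 was -0.24 there (adjusted p = 0.25) and 0.46 here. Ganab was listed at 0.0889, 0, 0 and 0.123 FPKM in chow 1 to 4 and at 4.57, 2.29, 3.2 and 9.97 in the HF_5AzaD libraries, and Exoc8 at 5.26, 5.37, 4.99 and 7.21 and 2.06, 0, 0 and 0. In both, the uninjected chow libraries resembled HF and the injected ones resembled HF_PBS.

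**Figure D5:**
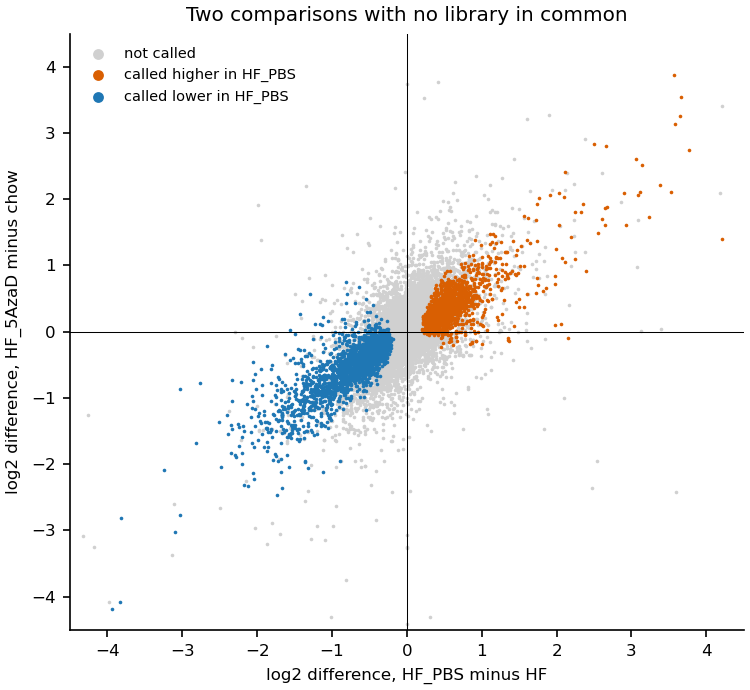
Each point is 1 locus, with its log2 difference between HF_PBS and HF on the x axis and between HF_5AzaD and chow, which use other libraries, on the y axis. Orange points (1580) rose and blue points (1956) fell in HF_PBS; most lie in the quadrants of equal sign (96.3% and 97.1%), and 17 loci lie outside the axes.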

How the data were processed

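RNA of 16 frontal cortex libraries had been selected for poly-A and copied with random primers, per the labels' protocols. The authors deposited FPKM per locus with a status for each value, and the tools listed in the submitters' processing notes are Bowtie, Bowtie2, TopHat, TopHat2, Cuffdiff and Cufflinks, with the build rn5. Use of strand in counting was not stated, so FPKM of a gene may include reads of an antisense or overlapping one.

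Loci with any status other than OK (161) or a mean under 1 FPKM were left out. Differences came from limma 3.58.1 (R 4.3.3) on log2(FPKM + 0.5), which understates changes of low genes, with 1 mean per group over 16 libraries, 12 residual degrees of freedom and a mean-dependent variance prior. The Benjamini-Hochberg adjustment covered all 14824 loci. The fit was tested on simulated data. A symbol was represented by its locus of highest mean. Columns of samples outside the series numbered 0.

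The members and lists were chosen with earlier results of these data known. Genes were named by a rule: per direction the 10 largest differences among called, non-overlapping genes at 5 FPKM or more and the 5 lowest p, up to 4 called genes per list, and Fos, Arc, Bdnf, Nr3c1, Fkbp5, Tsc22d3, Dnmt1, Gapdh and Actb. Of the genes so chosen, some are not reported here. Plots used Python 3.11.15 with matplotlib 3.10.9. Alternatives were other pseudocounts, filters, scalings, priors, weights, covariates and libraries.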

Additional observations from a re-analysis of the deposited data

Results flagged for a closer look

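In 45 of 504 groups of 4 values, over named genes and list scores, 1 library stood far from the other 3 of its group by Dixon's criterion (8.93%, where chance gives about 1 in 20). Of these, 22 fell on HF 6, 6 on HF 8, 5 on HF_PBS 4, 4 each on HF 5 and HF_PBS 2, 2 on HF_PBS 1, and 1 each on HF 7 and HF_PBS 3.

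HF 6 was the high library of its group for many synaptic, signalling and chromatin genes. Its values were 153 FPKM for Lphn1, 76.9 for Unc13a, 95.3 for Syt13 and 23.6 for Cacna1b. The potassium channel genes Kcnh7 and Kcnk9 were at 21.5 and 24.4 FPKM. Igf1r stood at 7.33, Tsc1 at 14.9, Ash1l at 32.9, Cbx6 at 129 and the glycosyltransferase gene Mgat5 at 23.2. Eif2ak3 (8.34), Lss (9.77) and the precursor cell receptor Gpr17 (20.1) were also high. The same library was low for Ndufa11 (84.5 FPKM), Lsm3 (11.7), Smarce1 (16.2), Dynlrb1 (234) and Th (0.725). Its scores were 0.658 for the scaffold list, 0.528 for potassium channels and -0.225 for mitochondrial import.

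HF 8 was high for the striatal genes Penk (441 FPKM) and Pde10a (56.2) and for Fos (30.2), and low for Psmb6 (3.52). Its striatal score was 2.37 and its olfactory score 0.357. HF 5 stood apart with Ganab at 0.513, Snrpd1 at 22 and Bdnf at 9.9 FPKM and an upper layer score of -0.64, and HF 7 with Med21 at 19.9. HF_PBS 4 was high for the dynein light chain genes Dynlrb1 (476) and Dynll1 (712) and in the metallothionein, thymosin and ferritin score (0.708), and low for Grid1 (5.99) and Mlst8 (5.21). HF_PBS 2 had Nr2c2 at 6.61, Lsm1 at 9.03, Aspa at 12.7 and Slc6a13 at 9.15 FPKM. HF_PBS 1 had Exoc8 at 2.39 and Grik3 at 9.22, and HF_PBS 3 a histone methyltransferase and acetyltransferase score of -0.0442.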

How the results depend on the processing

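No paired analysis was possible because HF (5 to 8) and HF_PBS (1 to 4) share no replicate number. The planned correction for protein length was not run, since no lengths of the files' build were used here. Under other pseudocounts, filters, scalings and variance priors, calls of loci stayed within 1.5 times those reported. With no filter on low values 4 glucocorticoid genes rose and 7 potassium channel genes fell. The depth is unknown in counts, so low loci cannot be given counting limits.

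With the 8 libraries of HF and HF_PBS alone, 560 loci rose and 873 fell. Then 17 cytosolic ribosomal, 15 mitochondrial ribosomal, 10 complex I, 3 ATP synthase, 5 translation factor, 4 antioxidant and 1 glucocorticoid genes rose, and 6 scaffold, 5 potassium channel, 3 vesicle and 6 insulin pathway genes fell. With library weights 942 loci rose, with 10 complex I, 7 antioxidant and 3 glucocorticoid genes, and 7 potassium channel genes fell. With the myelin covariate 364 rose and 642 fell. The lists then had 8, 5, 4, 0, 2, 2 and 2 in the first order and 3, 3, 4 and 2 in the second, and the glucocorticoid median was 0.41.

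Leaving out 1 library gave 641 to 1976 loci that rose and 990 to 2060 that fell. Among those that rose it gave 16 to 37 cytosolic ribosomal, 13 to 33 mitochondrial ribosomal, 7 to 24 complex I, 2 to 11 ATP synthase, 8 to 13 proteasome, 6 to 18 translation factor, 2 to 14 antioxidant and 1 to 9 glucocorticoid genes. Among those that fell it gave 8 to 15 scaffold, 4 to 18 potassium channel, 4 to 15 vesicle and 7 to 14 insulin pathway genes.

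Leaving out more libraries was chosen after seeing the data. Without HF 6 and HF_PBS 4, 145 loci rose and 353 fell. Then 6 cytosolic ribosomal, 3 mitochondrial ribosomal (median 0.22), 1 complex I (0.28), 0 ATP synthase, 3 proteasome, 3 translation factor, 1 antioxidant and 0 glucocorticoid genes rose, and 4 scaffold, 1 potassium channel, 2 vesicle and 2 insulin pathway genes (-0.19) fell. The medians of these 3 lists farthest from 0 with any library left out were 0.39, 0.51 and -0.32. Without HF 8, HF_PBS 3 and HF_PBS 4, 2 loci rose and 5 fell, with 0 cytosolic ribosomal (0.27), 1 mitochondrial ribosomal and 1 insulin pathway genes and 0 in the other 9 lists followed.

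Of 180 named genes called, 108 were still called with 8 libraries, 142 with weights, 157 with the striatal and 79 with the myelin covariate, 111 without HF 6, 120 without HF_PBS 4, 54 without both and 1 without HF 8, HF_PBS 3 and HF_PBS 4. Of these 180 genes 0 changed sign under the alternatives run. The cause of these changes was not tested.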

Other observations

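Of 21 neuropeptide and hormone genes 19 were tested, of which 3 rose, 0 fell and 18 had a difference above 0 (median 0.76). Of all loci, 10.7% rose and 13.2% fell. Pnoc, the precursor of nociceptin, was at 7.62, 6.28, 8.32 and 6.82 FPKM in HF 5 to 8 and at 12.1, 9.81, 22.9 and 9.21 in HF_PBS 1 to 4 (0.76, adjusted p = 0.0252). The others that rose were Pmch and Gal, which are hypothalamic markers as well. The count was 0 without HF 6, 1 without HF_PBS 4 and 7 without HF_PBS 1. Of 13 neurotrophin and plasticity genes 3 fell and 0 rose. Besides Camk2a these were Sort1, a sorting receptor of proneurotrophins (115, 180.5, 110.4 and 95.7 against 94.5, 78.7, 53.8 and 62.2 FPKM, -0.78, adjusted p = 0.0205), and Nptx1, a pentraxin that clusters AMPA receptors (117, 125, 82.8 and 75.1 against 93.4, 57.5, 18.4 and 21.8 FPKM, -1.34, adjusted p = 0.0246). Nptx1 was lowest in HF_PBS 3 and 4, and HF_PBS 1 lay within the HF range. Its values here are of its larger locus, and a second one was higher with saline (0.51, adjusted p = 0.176). The count of genes that fell was 1 without HF 6 and 1 without HF_PBS 4.

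Several symbols stand for more than 1 locus. Lphn1 fell at its larger locus, while a second one had means of 23.6 FPKM in HF and 55.0 in HF_PBS (2.38, adjusted p = 0.0969). Mlst8 likewise had a second locus at 1.22 and 4.21 FPKM (1.41, adjusted p = 0.0737). Cacna2d2 had a second locus at 8.55 FPKM in HF and 6.14 in HF_PBS (-0.54, adjusted p = 0.269). Nptx1 had one at 12.3 and 18.6 FPKM (0.51, adjusted p = 0.176). Second loci of Jund (-0.07) and Eef2 (0.10) also had the other sign. None of these second loci passed the test.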
